A study of Mus musculus with 30 samples.

Results

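The control animals of a mouse lung injury study were compared with each other: blood cells taken on the day after an injection of physiological serum against blood cells taken in the first hours after it. Members were chosen by the array titles, as the serum arrays at 18 and 24 h (4 arrays, called late below) and those at 1 and 1.5 h (6 arrays, called early below). These are 10 of the 30 arrays of the series. The 3 serum arrays at 3 and 4 h enter no comparison and are given as values only.

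Every array holds RNA of peripheral blood mononuclear cells (PBMC), the fraction of blood that is rich in lymphocytes and monocytes. The animals were female C57BL/6 mice (C57Bl/6J in the treatment protocol) aged 6 weeks, anesthetized with xylazine and ketamine. Late serum mice were killed 18 h (2 mice) or 24 h (2 mice) after 200 µl of physiological serum was given into the tail vein, and early serum mice 1 h (3 mice) or 1.5 h (3 mice) after the same injection. All mice were bled to death through the eye vein, between 200 and 900 µl of blood was taken into EDTA, and cells were separated on Ficoll of density 1.084. The other treatment was oleic acid (OA) at 1.2 µl/g, a fatty acid whose entry into the blood damages the lung. OA arrays are used here only to ask whether the same interval looked different in those mice, as 6 late OA arrays and 6 early OA arrays. With 30 mice in the design text and 30 arrays, each array stands for 1 animal here. There were no mice without an injection and none at time 0, so the anesthetic, the injected fluid, the handling and the hour of the day cannot be told apart from the elapsed time.

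Blood leukocytes respond to handling and anesthesia within hours. Stress hormones and catecholamines release neutrophils into the blood from the marrow and from vessel walls, and glucocorticoids move lymphocytes out of it and switch on a set of target genes. White cell numbers and clock genes in blood also follow the time of day. A Ficoll layer removes most neutrophils and red cells, but some remain, and platelets come along with the mononuclear cells, so their transcripts are measured too.

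No transcript passed the test between late and early serum arrays. The arrays measured 19639 genes or transcripts, 13297 of them with a gene symbol, and 19638 could be tested in this comparison with limma on log2 levels. The number called at an adjusted p under 0.05 (Benjamini-Hochberg, over all transcripts) was 0, so percent called was 0, and the smallest adjusted p was 0.0656, for Il13ra1. At an unadjusted p under 0.05 there were 939 transcripts, 312 higher (1.59%) and 627 lower (3.19%) in late arrays. All 4 late values lay outside the range of all 6 early values for 158 transcripts (0.805%), of which 54 (0.275%) were higher and 104 (0.53%) lower. Among the 210 ways to split 10 arrays into 4 and 6, a fraction of 0.00952 separates the values fully in either direction. The share of separated transcripts was not above that fraction. Where only transcripts above background on all 10 arrays were tested, 25 of 12339 (0.203%) passed, 1 higher and 24 lower, and a fit of all 30 arrays called 15 (0.0764%). Both of those lists hold Lilr4b, Lilrb4a, Socs3, Mefv and Tgfbi, 5 genes in all and all lower. The median difference over all tested transcripts was −0.09 on the log2 scale, and 38.4% were above 0. Without serum 24 h replicate 1 the median was 0.04 and 54.6% were above 0, the values to hold beside each list median given below without that array. Taken apart, 18 h against early also gave 0 calls (1067 at unadjusted p under 0.05), while 24 h against early gave 2, Sftpc and Scgb1a1, both higher, with 897 higher (4.57%) and 1406 lower (7.16%) at an unadjusted p under 0.05. Levels throughout are log2 signal minus the array's 75th percentile, and differences are late minus early unless another pair is named. In bulk RNA such as this, fewer cells of a type and less RNA per cell cannot be told apart.

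Late and early arrays covered a similar range of overall brightness, and 2 arrays stood apart in correlation. The 75th percentile of signal ran from 47.0 to 82.7 on late arrays and from 42.5 to 91.8 on early arrays, and late and early arrays were compared in it, in the share of probes above background and in the signal of intergenic probes (exact permutation tests, two-sided, adjusted p of 0.971, 0.9 and 0.9 over the 3 measures). Serum 24 h replicate 1 had the lowest median correlation with the other arrays of the comparison, 0.853, and the highest intergenic signal, −3.18 against −6.30 to −4.85 on the other 9. Serum 1.5 h replicate 3 followed with 0.912. The arrays lay on 4 slides: both 24 h arrays on slide 1 with 2 of the 1 h arrays, the 18 h arrays on slides 2 and 3. T cell genes (16 of 16 measured), B cell genes (14 of 14) and class II genes (10 of 10) were all present, as the label PBMC requires, together with neutrophil, platelet and red cell genes.

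Among genes whose groups did not overlap and that were above background on at least 1 array of each group, the 15 lower ones with the smallest p differed by −2.72 to −1.38. None of these 15 passed the test, and their adjusted p values were 0.271 or higher. Genes above background in 1 group only, Il13ra1 among them, are given further on as bounds. Lilr4b, a leukocyte immunoglobulin-like receptor of myeloid cells (probe at mm9 chr10:51201615-51201674), had −0.77 and −0.04 at 18 h and −0.73 and 0.29 at 24 h, against 0.75, 1.31 and 2.46 at 1 h and 2.43, 2.54 and 2.98 at 1.5 h. Every late array lay below every early one, and the 3 highest values are early arrays of both times. Its means were −0.31 ± 0.52 (SD, n = 4) in late and 2.08 ± 0.85 (SD, n = 6) in early arrays, a difference of −2.39 (SE 0.39), or 5.24-fold lower, with a limma adjusted p of 0.271. With normexp background correction, which adds a constant to every signal, its difference was −1.61. Its relative Lilrb4a, an inhibitory receptor of the same family, had late values of 2.94 to 3.61 and early values of 3.91 to 6.93, a difference of −2.25 (SE 0.48, adjusted p = 0.36). The 2 probes target closely related genes, so their signals may not be fully separate.

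Socs3, the feedback inhibitor that cytokine receptors induce through STAT3 (probe at mm9 chr11:117827480-117827539), had 3.17 and 3.38 at 18 h and 2.63 and 3.39 at 24 h, against 3.91, 5.06 and 5.27 at 1 h and 4.97, 4.92 and 5.52 at 1.5 h. Groups did not overlap, and 5 of the 6 early arrays lay within a narrow band well above the late arrays. The difference was −1.80 (SE 0.35), 3.48-fold lower, with an adjusted p of 0.36. Within the 3 slides that hold both late and early arrays, it was −1.58, −1.60 and −1.82. Tnf, the inflammatory cytokine, did not overlap either, with −1.39 to −0.57 on late arrays and −0.23 to 0.46 on early ones (difference −1.07, SE 0.29, adjusted p = 0.608), and its difference was −0.44 with normexp.

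**Figure D1:**
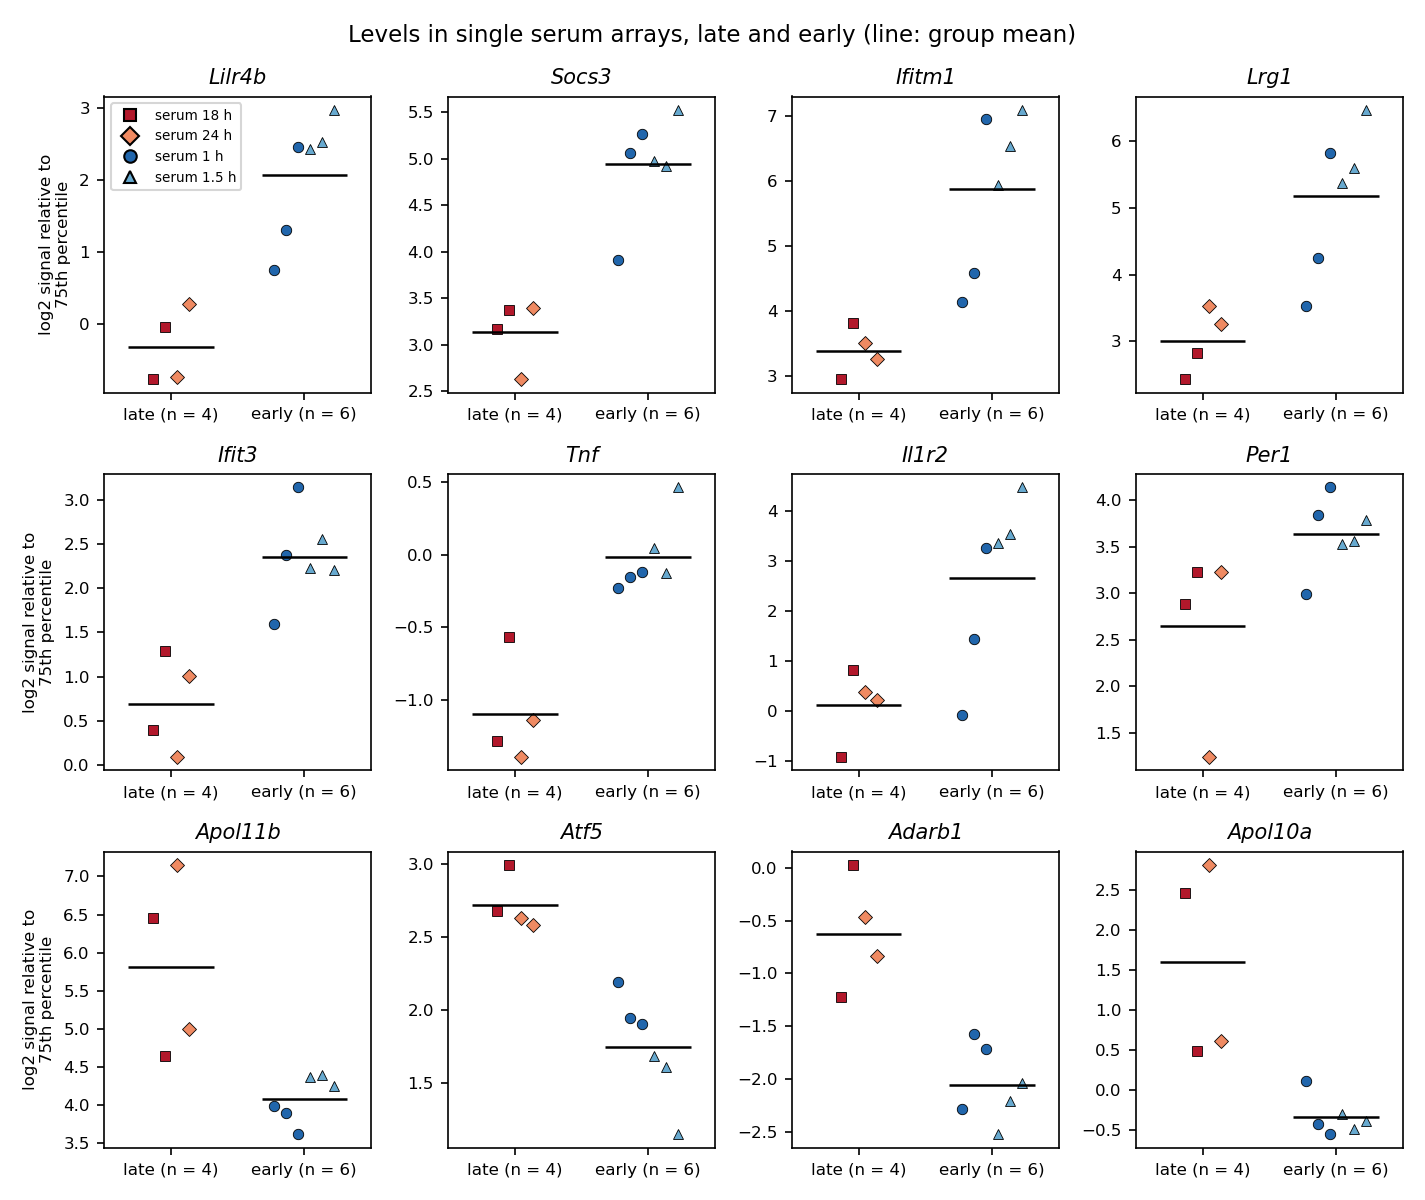
Levels (log2 signal minus the array's 75th percentile) of 12 transcripts on each serum array, late arrays (18 and 24 h) left of early arrays (1 and 1.5 h). Each point is 1 array and each bar a group mean. In Lilr4b the late points lie between −0.77 and 0.29 and the early points between 0.75 and 2.98.

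Several of these genes also varied widely within the early group. Ifitm1, an interferon-inducible membrane protein, had 2.95, 3.81, 3.51 and 3.26 on late arrays, against 4.14, 4.58 and 6.96 at 1 h and 5.94, 6.53 and 7.09 at 1.5 h. Igfbp6, an insulin-like growth factor binding protein, had −0.74 to 0.28 on late arrays and 0.57 to 3.46 on early arrays, again with 1 h replicates 1 and 2 lowest (0.57 and 1.16). Slfn4, a Schlafen family gene of myeloid cells, had −1.33 to 0.31 on late arrays and 0.40 to 3.17 on early arrays. In each case 1 h replicates 1 and 2 were the early arrays nearest to the late ones. The differences were −2.50 (SE 0.52) for Ifitm1, −2.72 (SE 0.53) for Igfbp6 and −2.53 (SE 0.51) for Slfn4, with an adjusted p of 0.36 for each.

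The neutrophil marker list had the same shape. All 19 of its 19 measured genes were below 0 in late minus early, with a median of −1.41 beside −0.09 over all transcripts, and 13 had an unadjusted p under 0.05 in the lower direction, against 3.19% of all transcripts. None passed the adjusted test, and for 0 of the 19 did late and early arrays separate. The mean level of the list was 1.83 and 2.86 at 18 h and 2.23 and 2.42 at 24 h, against 2.25, 2.53 and 4.35 at 1 h and 3.75, 4.15 and 4.85 at 1.5 h. Early arrays thus spanned 2.25 to 4.85, and 1 h replicates 1 and 2 lay inside the late range of 1.83 to 2.86. S100a8, the abundant calcium-binding protein of neutrophils, had 6.45 to 7.81 on late arrays and 7.04 to 9.86 on early ones. Il1r2, the decoy receptor for interleukin-1, had −0.91, 0.82, 0.39 and 0.22 late and −0.07, 1.44, 3.24, 3.35, 3.54 and 4.46 early (difference −2.53, SE 0.59, adjusted p = 0.433). Cxcr2, the chemokine receptor that draws neutrophils out of the marrow and into tissue, differed by −2.06 (SE 0.54, adjusted p = 0.587) and Clec4e, a receptor for microbial glycolipids, by −2.11 (SE 0.49, adjusted p = 0.433). Without serum 24 h replicate 1 the list median was −1.33, with all 19 genes below 0 and 9 at an unadjusted p under 0.05. Within slides it was −1.10, −0.68 and −1.49. The part of this list in the differences of Lilr4b, Ifitm1, Igfbp6 and Slfn4 was not tested.

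Genes for granule proteins of immature neutrophils had a median above 0 over both late times together, but not at each time. Of 8 measured members, 6 were above 0, with a median of 0.25. Against early arrays the median was −0.09 at 18 h, with 3 above and 5 below 0, and 0.46 at 24 h, with 6 above 0. Within slides the late minus early median was 0.35, 0.58 and −0.14. Ltf (lactoferrin) had 2.22 to 3.88 on late and 1.11 to 3.02 on early arrays (difference 0.78, SE 0.34), and Camp (cathelicidin) 3.24 to 4.42 on late and 2.34 to 3.98 on early arrays (0.68, SE 0.30). Lcn2 (lipocalin-2) had the opposite sign, and its groups did not overlap: 3.79 to 4.93 on late arrays and 4.95 to 6.81 on early ones (−1.10, SE 0.36, adjusted p = 0.75). Neither Ltf nor Camp passed the adjusted test. Mpo, Prtn3 and Fcnb of this list were not measured above the filter.

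Acute phase genes, whose proteins leukocytes and liver release in inflammation, had a median of −1.10 over 9 of 13 measured, with 8 below 0 and 5 lower at an unadjusted p under 0.05, beside 3.19% of all transcripts. Lrg1, a glycoprotein stored in neutrophil granules, had 2.43, 2.82, 3.52 and 3.26 late and 3.53, 4.25, 5.82, 5.37, 5.59 and 6.47 early (difference −2.16, SE 0.44, adjusted p = 0.36). Late and early nearly met, at 3.52 and 3.53. Ltf, the 1 member above 0, was higher at an unadjusted p under 0.05, beside 1.59% of all transcripts. Hp (haptoglobin) differed by −1.61 (SE 0.44). Wfdc21, Lcn2, Ltf and Chil3 are each on both this list and a neutrophil or immature neutrophil list. The part of the neutrophil list in the differences of the acute phase genes was not tested.

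Monocyte lists had lower medians at 24 h than at 18 h, each against early arrays. Over 11 classical monocyte genes the median late minus early difference was −0.55, with 9 below 0, and it was −0.10 at 18 h and −1.45 at 24 h. The list mean was 2.30 and 2.68 at 18 h and 0.84 and 2.11 at 24 h, against 1.94 to 2.89 on early arrays. Without serum 24 h replicate 1, the lowest array, the median was −0.22. Cd14, the endotoxin co-receptor, had −0.69, 0.68, −1.17 and −0.23 late and −0.15 to 2.70 early (difference −2.25, SE 0.51, adjusted p = 0.421), and Csf1r, the receptor that monocytes need to survive, had 5.31 and 5.24 at 18 h and 3.12 and 4.09 at 24 h, against 4.37 to 5.99 early. The 3 kept Csf1r probes had late minus early differences from −1.12 to −0.27. Patrolling monocyte genes had a median of 0.12 at 18 h and −0.99 at 24 h over 12 measured. Nr4a1, the transcription factor of that lineage, had 3.76 and 4.71 at 18 h and 1.58 and 2.50 at 24 h, against 3.05 to 4.99 early. None of these monocyte genes passed an adjusted test at either time.

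Interferon-stimulated genes were split. All 20 of 20 listed genes were measured, 14 below and 6 above 0, with a median of −0.33. 6 of the 20 were lower at an unadjusted p under 0.05, beside 3.19% of all transcripts, and none higher. Ifit3, an RNA-binding antiviral protein, had 0.39, 1.29, 0.09 and 1.00 late and 1.59, 2.38, 3.14, 2.22, 2.55 and 2.21 early, with no overlap (difference −1.66, SE 0.38, adjusted p = 0.421). Its near-identical copy Ifit3b, which is not on the list, had −1.57 to −1.04 late and −0.22 to 1.53 early (−1.76, SE 0.37, adjusted p = 0.36), and the probes of such copies may share signal. Mx1, Oas1a and Rtp4 had differences of −1.35, −1.33 and −1.37, while Isg15, Rsad2 and Oasl2 stood at 0.23, 0.41 and 0.27. In 24 h minus early, the list had a median of −0.48, and in 18 h minus early −0.30.

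The bases just before the starts of Ifit3, Ifit3b and Socs3 are shown because these genes did not overlap between groups and belong to pathways with a known DNA motif. The first pair is searched for the interferon response motif GAAANNGAAA and Socs3 for the STAT motif TTCNNNGAA, on both strands, with matches in capitals. Each run is the 250 bases before the annotated start, read along the gene's strand, from RefSeq on GRCm38.p6: Ifit3 at chr19:34583279-34583528 (plus strand), Ifit3b at chr19:34607707-34607956 (plus strand) and Socs3 at chr11:117969367-117969616 (minus strand).
Ifit3: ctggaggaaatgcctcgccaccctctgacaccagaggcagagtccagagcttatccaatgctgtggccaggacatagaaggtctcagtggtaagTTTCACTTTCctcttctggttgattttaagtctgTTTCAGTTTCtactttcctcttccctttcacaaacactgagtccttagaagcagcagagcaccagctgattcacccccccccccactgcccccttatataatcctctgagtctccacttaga
Ifit3b: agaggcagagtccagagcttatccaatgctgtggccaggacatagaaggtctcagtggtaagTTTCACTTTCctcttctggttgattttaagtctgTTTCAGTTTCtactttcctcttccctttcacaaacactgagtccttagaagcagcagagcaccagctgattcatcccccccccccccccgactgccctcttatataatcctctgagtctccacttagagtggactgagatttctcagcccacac
Socs3: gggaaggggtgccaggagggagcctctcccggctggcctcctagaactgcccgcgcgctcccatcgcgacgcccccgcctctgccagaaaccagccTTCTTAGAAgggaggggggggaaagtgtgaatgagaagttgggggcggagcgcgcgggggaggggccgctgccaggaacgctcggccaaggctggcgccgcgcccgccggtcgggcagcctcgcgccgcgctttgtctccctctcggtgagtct
Ifit3 and Ifit3b each hold 2 matches of GAAANNGAAA, all on the reverse strand, and Socs3 holds 1 match of TTCNNNGAA. GAAANNGAAA occurs in 978 of the 32851 promoter windows of that table (2.98%) and in 7 of the 15 windows found for interferon-stimulated genes (46.7%). TTCNNNGAA occurs in 2306 windows (7.02%). The matches describe sequence and were chosen by pathway, not by binding data.

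Some of the lower transcripts had no late array above background, so that only a bound could be given. Il13ra1, a chain of the interleukin-13 receptor, was above background on 4 early and 0 late arrays and at least 1.54-fold lower, with measured means of −4.00 ± 0.36 (SD, n = 4) late and −1.39 ± 0.76 (SD, n = 6) early and an adjusted p of 0.0656. Its difference was −2.60, and −0.50 with normexp. Snai1, a transcriptional repressor, was at least 1.87-fold lower, Steap4, a metalloreductase, at least 1.65-fold, and Serpina3f, a serine protease inhibitor, at least 2.39-fold. Serpina3f was above background on all 6 early arrays. For Mgam, a maltase, the bound gave no fold. With the slide as a block 3 transcripts (0.0153%) passed, Il13ra1 (adjusted p = 0.0416), Snai1 (0.0194) and Sftpc (0.0194).

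The 15 higher genes with groups apart differed by up to 1.94, and adjusted p values were 0.433 or higher. Apol11b, an apolipoprotein L gene (probe at mm9 chr15:77465030-77465089), had 6.45 and 4.65 at 18 h and 7.15 and 4.99 at 24 h, against 3.99, 3.89 and 3.61 at 1 h and 4.37, 4.39 and 4.25 at 1.5 h. Early arrays were close together, and at each late time 1 array was high and the other just above the early range. The difference was 1.73 (SE 0.46), 3.31-fold higher, with an adjusted p of 0.605. Apol10a of the same cluster had 2.46, 0.50, 2.82 and 0.62 late and −0.55 to 0.12 early, with replicate 1 of both late times again the higher one (difference 1.94, SE 0.48, adjusted p = 0.529). In the slide 2 arrays, where 18 h replicate 2 stands beside a 1.5 h array, Apol11b differed by 0.28, against 2.27 and 2.31 on the other slides.

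Others separated too. Atf5, a transcription factor of the amino acid and mitochondrial stress responses, had 2.68, 2.99, 2.63 and 2.58 on late arrays and 1.15 to 2.19 on early arrays, a difference of 0.97 (SE 0.27), 1.97-fold higher, adjusted p = 0.642. Adarb1, an adenosine deaminase that edits RNA, had −1.23 to 0.03 late and −2.53 to −1.58 early (1.43, SE 0.33, adjusted p = 0.433), and its difference was 0.42 with normexp. Among genes with no early array above background, Slc22a23, a transporter with no settled substrate, was at least 2.25-fold higher, Cela1, an elastase, at least 1.74-fold and 5830444B04Rik at least 1.65-fold.

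Platelet genes stood above 0 as a list, without a call. All 14 of 14 measured were above 0, with a median of 1.05 beside −0.09 over all transcripts, and 3 had an unadjusted p under 0.05 in the higher direction, against 1.59% of all transcripts. The list mean was 3.79 and 6.25 at 18 h and 4.16 and 5.64 at 24 h, against 3.05 to 4.35 on early arrays. Replicate 2 of each late time was far above the early range, and replicate 1 lay inside it. Pf4, the chemokine of platelet granules, had 8.05, 10.53, 7.75 and 9.45 late and 6.96 to 8.02 early (difference 1.23, SE 0.49, adjusted p = 0.911). Within slides the median was 0.62, 2.14 and −0.28. Gp1ba and Gp1bb, chains of the von Willebrand factor receptor, differed by 1.15 (SE 0.50) and 1.22 (SE 0.49).

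Erythroid genes had a median of 0.75, with 16 of 17 measured above 0, 2 of them higher at an unadjusted p under 0.05, beside 1.59% of all transcripts. The list mean was 4.29 and 3.73 at 18 h and 4.94 and 3.46 at 24 h, against 4.13, 4.17 and 2.53 at 1 h and 3.69, 2.89 and 2.72 at 1.5 h. Late and early overlapped, and 1 h replicates 1 and 2 were the highest of the early arrays here while they were the lowest in neutrophil genes. Ahsp, the chaperone of alpha-globin, had 6.39, 5.53, 6.85 and 4.38 late and 3.47 to 5.68 early (1.36, SE 0.56), and Sptb, the beta chain of spectrin, differed by 1.56 (SE 0.60). Without serum 24 h replicate 1 the list median was 0.33, with 13 of 17 above 0.

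**Figure D2:**
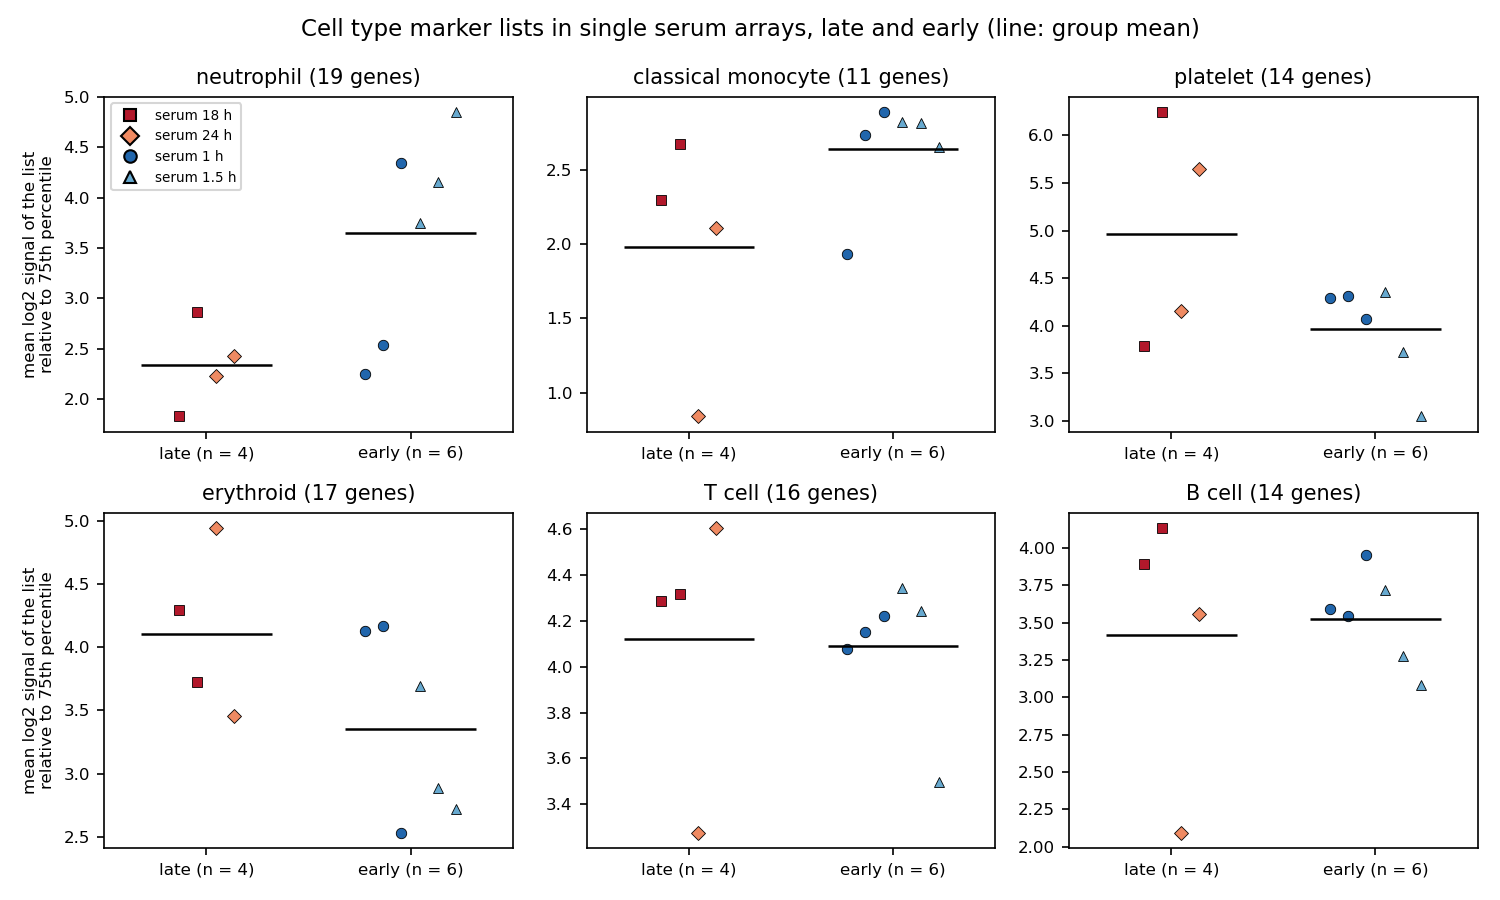
Mean level of marker lists (log2 signal minus the array's 75th percentile, averaged over the list's measured genes) on each serum array, late arrays left of early arrays. Neutrophil means lie at 1.83 to 2.86 late and 2.25 to 4.85 early, and platelet means at 3.79 to 6.25 late and 3.05 to 4.35 early.

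Lymphocyte lists sat near the median of all transcripts over both late times together. At 18 h each list median was above that of all transcripts. At 24 h the B cell and homing medians were below it, and the T cell and NK medians were close to it. T cell genes had a median of 0.02 over 16 measured, B cell genes −0.14 over 14, homing and naive T cell genes −0.03 over 15 and NK and cytotoxic genes 0.07 over 14, with 2 NK genes higher at an unadjusted p under 0.05 and no other member of these lists past it. Against early arrays, the B cell median was 0.50 at 18 h, with 13 of 14 above 0, and −0.77 at 24 h, with 0 of 14 above 0. Between 24 h and 18 h, 8 of the 14 were lower at 24 h at an unadjusted p under 0.05, beside 7.73% of all transcripts, and none passed the adjusted test. NK genes had 0.58 at 18 h and −0.20 at 24 h, T cell genes 0.22 and −0.19, and homing genes 0.33 and −0.40, beside 0.02 and −0.20 over all transcripts. Ncr1, an activating receptor of NK cells, had 1.26, 0.44, 0.57 and 0.93 late and −0.21 to 0.67 early (0.69, SE 0.31, adjusted p = 0.999), and Tbx21, the transcription factor T-bet, differed by 0.74 (SE 0.33). Serum 24 h replicate 1 was the lowest of the 10 arrays in the T cell, B cell, class II, NK and ribosomal protein lists. Without it the late minus early medians were 0.41 for T cell, 0.31 for B cell and 0.48 for NK genes, and 16 of 16 T cell genes and 15 of 15 homing genes were above 0, beside 54.6% of all transcripts. The 24 h median of B cell genes was then 0.01, with 7 of 14 above 0. Cxcr4, the receptor that retains leukocytes in marrow, had 2.07, 2.33, 0.51 and 2.11 late and 1.49 to 2.25 early.

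Genes that glucocorticoids induce had a median of −0.72 over 14 of 15 measured, with 12 below 0 and 5 lower at an unadjusted p under 0.05, beside 3.19% of all transcripts. The median was −0.20 at 18 h and −1.18 at 24 h. Fkbp5, a co-chaperone of the glucocorticoid receptor, had 0.86, 1.08, 0.81 and 0.53 late and 0.54 to 1.84 early (−0.37, SE 0.29), and Tsc22d3 (GILZ) had 5.66, 6.25, 3.53 and 5.87 late and 4.63 to 5.95 early (−0.01, SE 0.43). The members with the smallest p were Errfi1, an inhibitor of the EGF receptor (−1.24, SE 0.39), Anxa1, the anti-inflammatory annexin A1 of myeloid cells (−1.17, SE 0.39), and Per1 (−0.998, SE 0.41). Dusp1, a phosphatase that shuts off MAP kinases, differed by −0.79 (SE 0.51), Klf9 by −0.77 (SE 0.34), Zbtb16 by −0.64 (SE 0.31) and Sgk1 by −0.61 (SE 0.43), while the metallothioneins Mt1 and Mt2 were at 0.19 and 0.17. Without serum 24 h replicate 1 the median was −0.44, with 10 below 0 and 2 past an unadjusted p of 0.05.

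Clock genes were measured in part, 11 of 18, and Nr1d1 and Per2 were not above the filter. Their median was −0.24, and without serum 24 h replicate 1 it was 0.02. Per1, a repressor of the clock that glucocorticoids also induce, had 2.88 and 3.23 at 18 h and 1.24 and 3.23 at 24 h, against 2.99, 3.84 and 4.14 at 1 h and 3.54, 3.57 and 3.79 at 1.5 h. 3 of its late arrays lay at 2.88 to 3.23, and the fourth was far below them. Nfil3, a repressor of clock output, had 0.04, 0.36, −1.80 and −0.09 late and −0.54 to 2.13 early (−1.54, SE 0.53, adjusted p = 0.798). Dbp, a direct clock output gene, had 1.83, 2.24, 0.55 and 2.43 late and 1.32 to 2.20 early (−0.06, SE 0.39), and Arntl (BMAL1), the activator, 0.23, 0.60, −0.997 and 0.37 late and −0.17 to 0.67 early (−0.24, SE 0.35). The sources used here do not give the hour of the day at which blood was taken.

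Immediate early genes, which many stimuli induce within minutes, had a median of −0.63 over 18 measured, with 16 below 0. At an unadjusted p under 0.05, 3 were lower, beside 3.19% of all transcripts. Against early arrays the median was −0.18 at 18 h and −1.15 at 24 h, beside 0.02 and −0.20 over all transcripts. Within slides the late minus early median was −1.03, −0.09 and −0.51. Egr1 had −0.83, 1.21, −1.87 and −0.76 late and −0.78, −0.33, 2.32, 2.27, 1.96 and 2.95 early (−1.96, SE 0.62, adjusted p = 0.741). Fos had 2.24, 3.92, 1.504 and 1.97 late and 1.23, 1.92, 4.47, 3.95, 4.13 and 4.64 early (−0.98, SE 0.58). In both genes 1 h replicates 1 and 2 did not exceed the late range, and the other early arrays did. Inflammatory cytokine and NF-kB target genes had a median of −0.62 over 16 measured, with 11 below 0 and 5 lower at an unadjusted p under 0.05, beside the same 3.19%. Il1b (interleukin-1 beta) had 1.71, 4.27, 1.90 and 2.29 late and 2.14, 2.62, 6.32, 5.11, 5.42 and 6.57 early (−2.16, SE 0.78, adjusted p = 0.833).

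Cold- and heat-linked RNA-binding proteins and chaperones had a median of −0.03 over 14 measured, with 7 above and 7 below 0, and 0.37 at 18 h and −0.48 at 24 h. The 2 members lower at an unadjusted p under 0.05 were the cold-linked Cirbp and Rbm3, which rise when body temperature drops, with differences of −1.15 (SE 0.45) and −1.001 (SE 0.38), with adjusted p values of 0.893 and 0.877. Rbm3 had 4.03, 5.00, 3.23 and 4.80 late and 4.85, 4.85, 5.69, 5.51, 5.53 and 5.14 early. The groups overlapped, and a second Cirbp probe had a difference of 0.32, of the opposite sign. Adhesion and chemoattractant receptors had a median of −0.51, with 0 of 15 above 0, beside 38.4% of all transcripts. At an unadjusted p under 0.05, 4 were lower, beside 3.19% of all transcripts. Without serum 24 h replicate 1 the median was −0.26, with 5 of 15 above 0, beside 54.6%. The lowest p values after Cxcr2 were those of the formyl peptide receptors Fpr2 (−1.55, SE 0.44) and Fpr1 (−1.41, SE 0.44). Cxcr2, Fpr2 and Fpr1 are also on the neutrophil list. Basophil genes had −0.41 over 5 of 10 measured, with 4 below and 1 above 0. Hdc, the enzyme that makes histamine, was at −2.54 (SE 0.54, adjusted p = 0.36). The others were Prss34 at −0.79, Il3ra at −0.41, Il4 at −0.17 and Gata2 at 0.59. Mcpt8, Cpa3, Fcer1a, Ms4a2 and Cd200r3 were not measured above the filter. Dendritic cell genes had −0.38 over 11, with 0.20 at 18 h and −0.75 at 24 h. The remaining lists were closer to 0: −0.30 for unfolded protein response and for class II genes, −0.27 for hypoxia and glycolysis, −0.26 for cytosolic ribosomal proteins (0 of 39 above 0, and 36 of 39 above 0 without serum 24 h replicate 1), −0.15 for oxidative phosphorylation, −0.19 for cell cycle, −0.11 for fatty acid oxidation, −0.09 for sterol synthesis and −0.0027 for NRF2 targets.

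**Figure D3:**
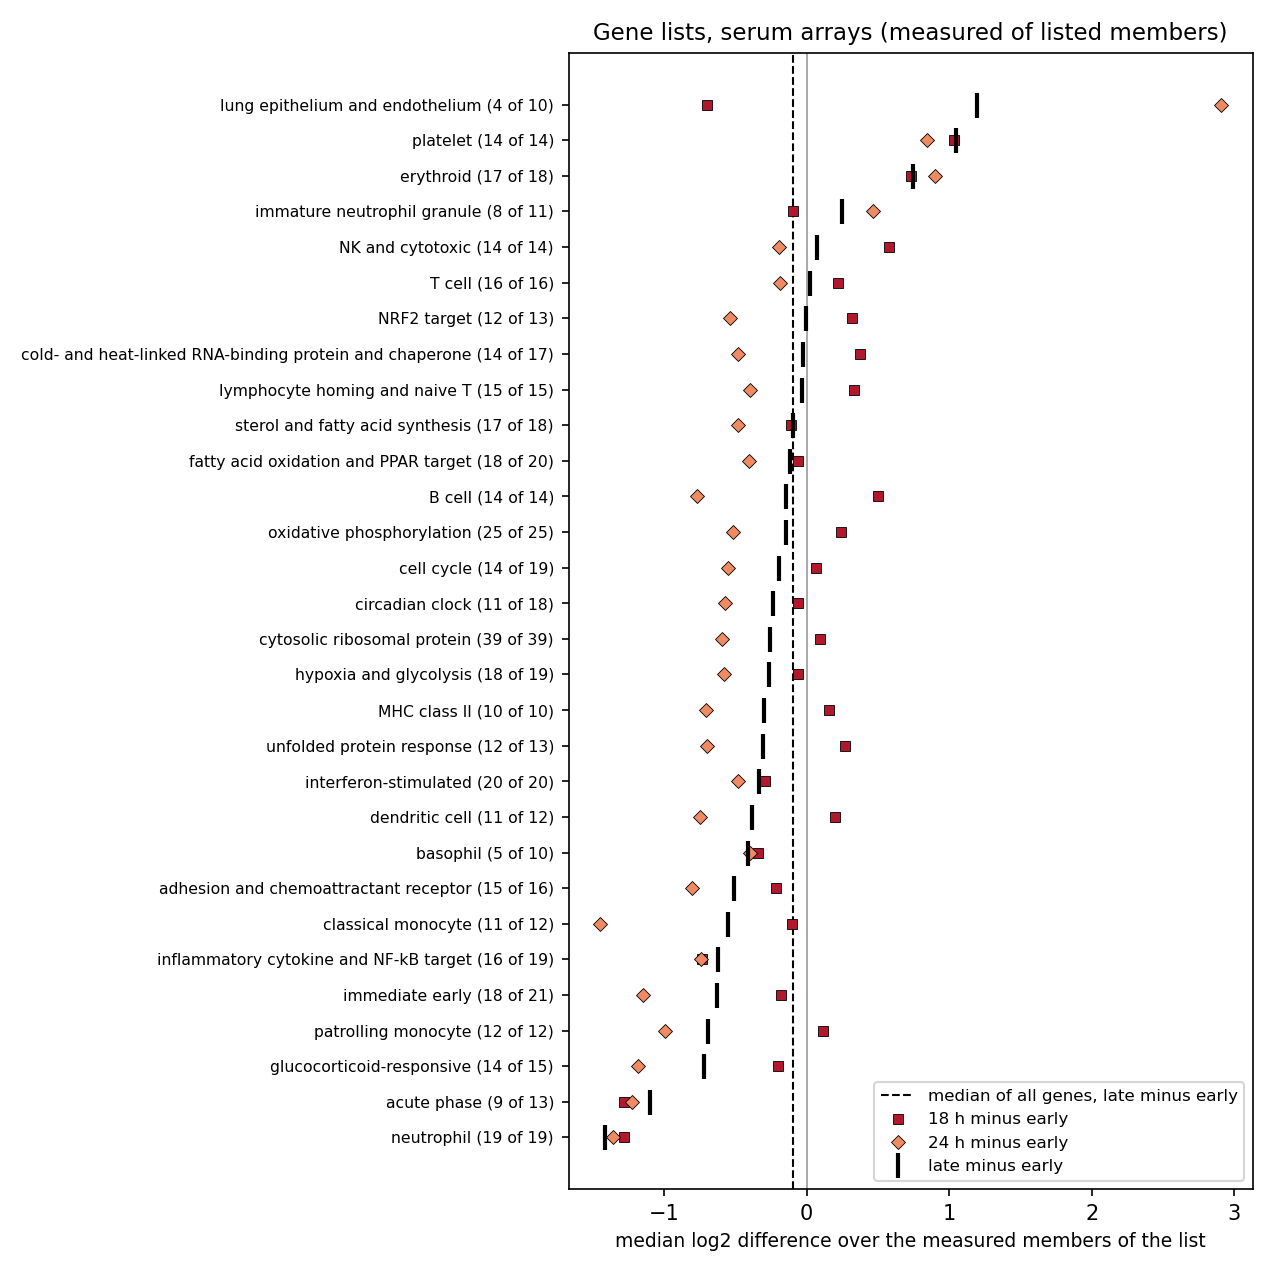
Median log2 difference of each gene list, late minus early, for both late times together and for 18 h and 24 h apart. The neutrophil median is −1.41, the platelet median 1.05, and the lung list has −0.70 at 18 h and 2.91 at 24 h.

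At 24 h, 2 lung transcripts rose, Sftpc and Scgb1a1, the only calls of 24 h minus early (2 of 19639, 0.0102%). Sftpc encodes surfactant protein C, made by alveolar type II cells, and Scgb1a1 the secretoglobin of airway club cells, and neither cell type is a blood cell. Sftpc had 2.51 and 1.63 at 24 h and −4.45 and −4.78 at 18 h, against −3.86, −4.46 and −4.71 at 1 h and −4.08, −4.18 and −2.10 at 1.5 h. Both 24 h arrays stood far above all others, and only 1 early array, 1.5 h replicate 3, was above background. Its 24 h minus early difference was 5.97 (SE 0.56), with a limma adjusted p of 0.00335. No fold is given, since 5 of the 6 early values are not well above background, and the difference was 2.33 with normexp and 4.02 in the authors' table, both past the test (adjusted p of 0.00723 and 0.00733). Scgb1a1 had 3.35 and 2.26 at 24 h and −1.64 and −2.32 at 18 h, against −2.16 to −1.29 on early arrays, a difference of 4.48 (SE 0.43), 22.4-fold higher, with an adjusted p of 0.00335. It was above background on all 10 arrays, and its difference was 2.59 with normexp and 4.05 in the authors' table. The probes that carry these calls begin as follows, shown as the first 30 of 60 bases of each.
Sftpc: ggagagctaccactctactatatctagcat
Scgb1a1: tgaagctcactggatttcagagatattcta
The Sftpc probe lies at mm9 chr14:70920899-70921159 on the minus strand, where 60 bases spread over 261 bases of genome, and had 1 spot per array. The Scgb1a1 probe lies at mm9 chr19:9158197-9158256 on the minus strand and had 10 spots per array, which were averaged.

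The rest of the lung list was less complete. Sftpb, Sftpa1, Cldn18, Cldn5, Cdh5 and Tek were not measured above the filter, so 4 of 10 genes remained. Ager, a receptor of alveolar type I cells, had −1.02 and −1.51 at 24 h and −3.61 and −3.07 at 18 h, against −2.91 to −2.10 early (24 h minus early 1.33). The list mean was 1.26 and 0.14 at 24 h and −2.92 and −3.14 at 18 h, against −2.81 to −1.55 early. Serum 24 h replicate 1, which had the weakest correlation with the other arrays, had the higher value of each of the 2 called genes. Without it, 24 h minus early had 0 calls, with an adjusted p of 0.17 for Sftpc and 0.141 for Scgb1a1, and without the other 24 h array it had 2818. With the intergenic signal of each array as a covariate there were also 0 calls, with an adjusted p of 0.0957 for both genes. Both 24 h arrays share slide 1 with 1 h replicates 1 and 3, and within that slide the differences were 6.35 for Sftpc and 4.52 for Scgb1a1.

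In 24 h minus 18 h, 7 transcripts passed (0.0356%), all higher at 24 h, and at an unadjusted p under 0.05 there were 1851 higher (9.43%) and 1518 lower (7.73%). Sftpc differed by 6.69 (SE 0.69, adjusted p = 0.0135) and was at least 23.6-fold higher, since no 18 h array was above background. Scgb1a1 differed by 4.79 (SE 0.53, adjusted p = 0.0138). Irx2, a homeobox transcription factor, had −0.54 and 0.43 at 24 h and −4.50 and −4.53 at 18 h, beside −3.31 to −2.42 on early arrays, and was at least 5.41-fold higher at 24 h than at 18 h (adjusted p = 0.014). Krt28, a keratin of the hair follicle, had 0.19 and −0.57 at 24 h and −4.57 and −4.18 at 18 h (at least 4.93-fold, adjusted p = 0.0389), and Lrrc26, a subunit of a potassium channel, −0.86 and −0.84 at 24 h and −4.33 and −4.51 at 18 h (at least 3.13-fold, adjusted p = 0.0175). Against early arrays, the 24 h differences were smaller, 2.90 for Irx2, 2.66 for Krt28 and 1.64 for Lrrc26, and none of these passed. The other 2 called probes have no name in the tables used. With the slide as a block none of the 7 passed. Sftpc then differed by 6.45 (adjusted p = 0.0742) and Scgb1a1 by 4.25 (0.673). The 18 h and 24 h arrays share no slide.

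**Figure D4:**
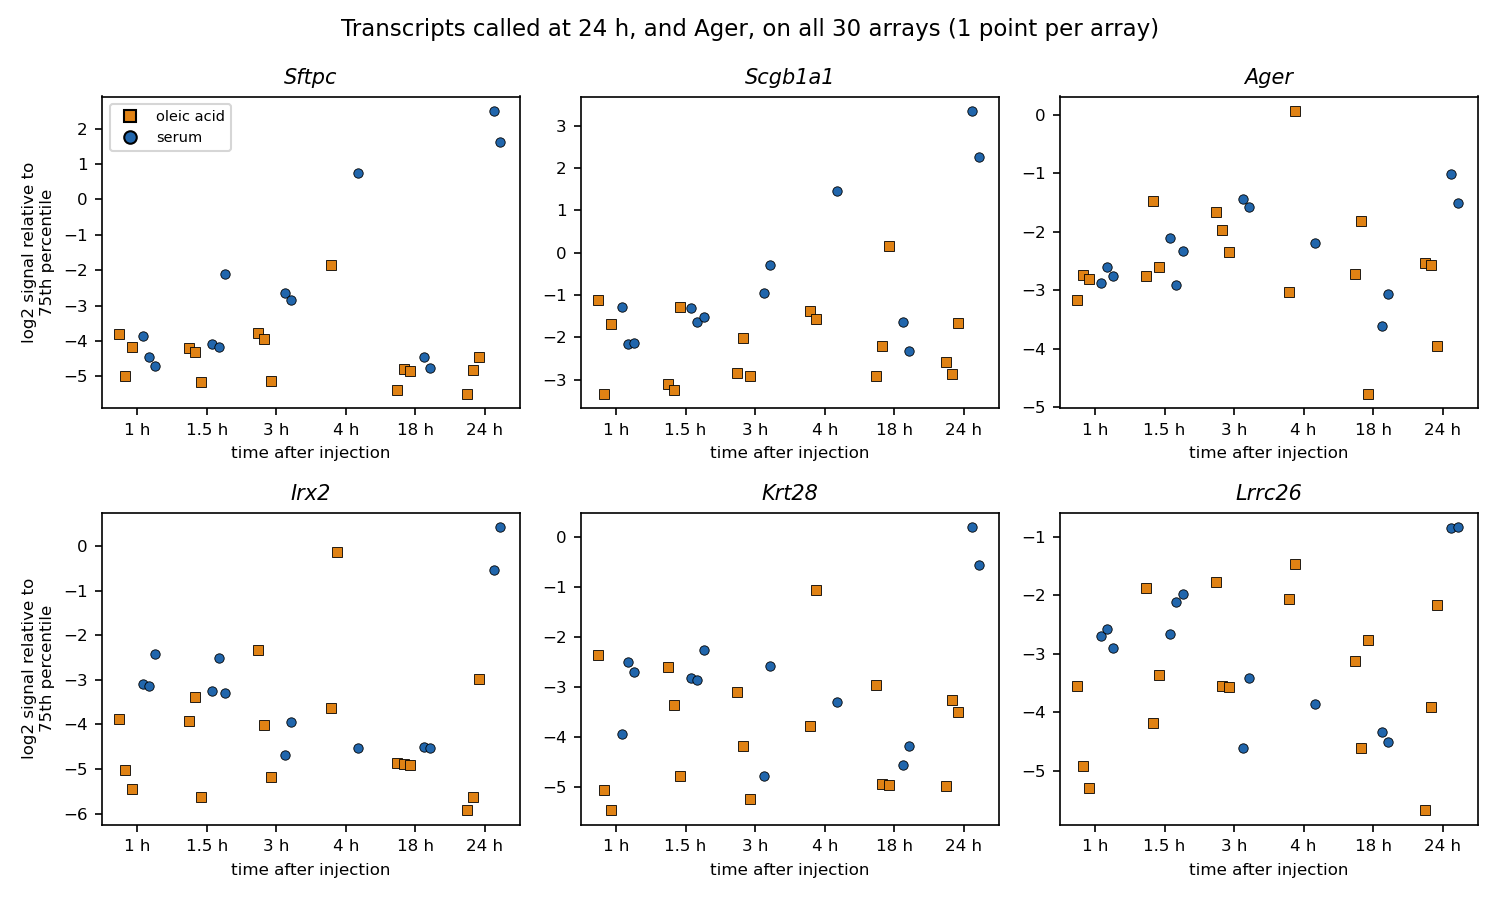
Levels (log2 signal minus the array's 75th percentile) of transcripts that passed a test at 24 h, and of Ager, in OA and serum arrays at 1, 1.5, 3, 4, 18 and 24 h, OA points left of serum points at each time. Each point is 1 array. Sftpc lies at 1.63 and 2.51 in serum at 24 h and between −5.51 and −4.46 in OA at 24 h.

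The early group itself was compared, 1.5 h with 1 h. No transcript passed (0% called, 911 at an unadjusted p under 0.05, smallest adjusted p 0.126). Neutrophil genes had a median of 1.27, with 18 of 19 above 0 and 5 higher at an unadjusted p under 0.05 beside 1.63% of all transcripts, and patrolling monocyte genes had 0.65, with 11 of 12 above 0. The 1 h arrays were not alike in this, since replicate 3 had a neutrophil mean of 4.35, within the 1.5 h values of 3.75 to 4.85, and replicates 1 and 2 had 2.25 and 2.53. Il1r2 differed by 2.25 between the times, with 3.35, 3.54 and 4.46 at 1.5 h and −0.07, 1.44 and 3.24 at 1 h.

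Mice given OA were measured over the same interval, on arrays that enter none of the serum differences. Late minus early in OA gave 2 calls (0.0102%), 1 higher and 1 lower. All 15 of the named lower genes of the serum arrays were below 0 there too, with a median of −0.60 and a range of −2.17 to −0.10, beside 52% of all transcripts below 0, and 7 of them had an unadjusted p under 0.05, beside 2.83% of all transcripts in that direction. Of the 15 named higher genes 9 were above 0, beside 48%, with a median of 0.44 and 3 at an unadjusted p under 0.05, beside 1.93%. Slfn4 differed by −2.17 in OA and −2.53 in serum, and Ifit3 by −1.45 in OA and −1.66 in serum. OA and serum arrays share slides, and these genes were chosen in serum.

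No transcript passed the test of the difference between the treatments, OA late minus early less serum late minus early (0% called, 454 at an unadjusted p under 0.05, smallest adjusted p 0.221). That smallest value was Sftpc, at −3.16 (SE 0.52), with −5.51, −4.82 and −4.46 on the 24 h OA arrays. The platelet list had a median of −0.24 in OA and 1.05 in serum, and the neutrophil list −0.83 in OA and −1.41 in serum. The erythroid list had 0.45 in OA and 0.75 in serum. Cd68, a lysosomal protein of monocytes and macrophages, differed by 0.25 in OA and −0.98 in serum (interaction 1.23, SE 0.30), and Slc22a23 by −0.28 in OA and 1.95 in serum (interaction −2.23, SE 0.54). The adjusted p of the interaction was 0.9997 for both. A second kept Cd68 probe differed by −0.29 in serum late minus early.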

How the data were processed

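RNA of PBMC was hybridised in 1 colour (Cy3, from 200 ng) to Agilent mouse arrays of 62976 spots. Per the file headers, the deposited files are scanner output of Feature Extraction 10.5.1.1 with linear intensity values that are background-corrected within the array and not normalized between arrays, and probe coordinates are mm9. The authors' deposited value table served only as an alternative. These log2 values were made by the authors in steps the labels do not state, and the log2 scale was read from comparison with the intensity values: each of the 10 columns matched its own array best, and column medians were 5.37 to 5.38. The sources used here state neither its centring nor its scaling.

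Control spots and spots marked as outliers (115 to 296 per array) were dropped and no spot was saturated. log2 processed signal minus each array's 75th percentile over 59305 non-control spots was averaged per probe. Probes above background (the scanner's own call) on at least 3 of the 10 arrays were kept (26499), and the probe with the highest mean stood for its gene, giving 19639 genes or transcripts. Names came from RefSeq tables of GRCm38.p6 by accession (26864 probes) or symbol (3751, and 623 by an older symbol), and 24443 kept the name of the file. Where no array of one group saw a probe above background, its fold is a lower bound. For the dim group each array then contributes the probe's signal or, if higher, the weakest signal of any probe above background, and the bright group contributes its plain mean.

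A model with 4 time groups was fitted with limma 3.58.1 in R 4.3.3 (6 residual degrees of freedom, prior 5.45, median residual SD 0.563), and late minus early is the mean of 18 and 24 h minus the mean of 1 and 1.5 h. The comparison with OA used 22 arrays and 8 groups. Of the values, 96 were missing. The number of arrays limits the precision, and the script was tested on simulated data. Members, gene lists (30 lists, 473 genes, 424 measured) and the naming rule were chosen with earlier results of these data known. Since no gene passed in late minus early, the rule named the 15 genes per direction with the smallest p among those whose groups did not overlap and that were above background on at least 1 array of each group, up to 5 per direction seen in 1 group only, the 3 with the smallest p in each list, 15 anchor genes, and the 5 per direction with the smallest p in the interaction and in 24 h minus 18 h, 146 genes in all that were measured. Some genes that the rule named are not reported here. Alternatives changed scaling, background correction, filters, slide or replicate blocks, array weights and the arrays used.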

Additional observations from a re-analysis of the deposited data

Results flagged for a closer look

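Among the 4 late or the 6 early serum arrays, 104 sets of values were searched for a lone array far from the rest (Dixon's criterion). In 9 of them there was one, where chance gives about 1 in 20 for a single set. The sets share arrays, and some share genes, so they are not independent. Serum 1.5 h replicate 3 had 56.2% of probes above background (37.1 to 43.0 on the other early arrays), a median correlation of 0.912 (0.949 to 0.958), a T cell list mean of 3.50 (4.08 to 4.35), a lung list mean of −1.55 (−2.81 to −2.35) and a Sftpc level of −2.10 (−4.71 to −3.86). Serum 24 h replicate 1 had a median correlation of 0.853 (0.940 to 0.951 on the other late arrays) and a Cxcr4 level of 0.51 (2.07 to 2.33). Serum 1 h replicate 1 had a classical monocyte mean of 1.94 (2.66 to 2.89 on the other early arrays) and a Krt28 level of −3.94 (−2.86 to −2.26).

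The 24 h and 18 h effects, each against early arrays, differed by a test of 24 h minus 18 h for 5 named genes: Sftpc by 6.69, Scgb1a1 by 4.79, Irx2 by 4.46, Krt28 by 4.19 and Lrrc26 by 3.57 on the log2 scale.

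Serum arrays at 3 and 4 h stood outside the comparison. The 4 h array had a Sftpc level of 0.74 beside a highest early value of −2.10, and a Scgb1a1 level of 1.47 beside a highest early value of −1.29. The 3 h arrays had Scgb1a1 levels of −0.95 and −0.29. Each 4 h and 3 h value named lies above all 6 early arrays.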

How the results depend on the processing

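In late minus early, calls numbered 25 with the filter on all 10 arrays, 3 with the slide as a block, 15 with all 30 arrays and 0 to 1 leaving out 1 array (Rps3 alone without serum 18 h replicate 2, at −3.70). In 18 h minus early they numbered 2 with that filter, 3 with all 30 arrays and 0 to 1 leaving out 1 array. In 24 h minus early, the 2 calls became 52 without a filter, 98 with all 30 arrays, 1 with median scaling (neither Sftpc nor Scgb1a1), with the filter on all 10 arrays (Scgb1a1) or with the slide block (Sftpc), and 0 with the intergenic signal as a covariate or with array weights, whose estimation did not converge. Leaving out 1 array gave 0 (without serum 24 h replicate 1) to 2818 (without serum 24 h replicate 2, where the spread of the single remaining 24 h array is borrowed from the other groups). In 24 h minus 18 h, the 7 calls became 1 with median scaling, 0 with the slide block, 2 with the replicate block and 0 to 4833 leaving out 1 array. In 1.5 h minus 1 h leaving out 1 array gave 0 to 0, and in the interaction 0 to 1 (1 without serum 1.5 h replicate 3 or serum 18 h replicate 2). Rps3 has 3 kept probes, whose late minus early differences on all 10 arrays ran from −1.97 to −0.10. Within slides the probe used differed by −0.75, 0.19 and −6.83. The causes of these changes in calls were not tested.

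Correlations of same-numbered deviations from the group means ran from −0.51 to 0.61, with no common sign across times. Between 18 and 24 h they were 0.61 for both replicate numbers, where the deviations of the 2 arrays at each time mirror each other. This check cannot settle whether replicate numbers pair the arrays. With the replicate block, calls were 0 in late minus early, 0 at 18 h, 2 at 24 h, 2 in 24 h minus 18 h, 0 in 1.5 h minus 1 h and 0 in the interaction.

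Median scaling put 49.6% of all transcripts above 0 in late minus early (median −0.0032), and without a filter 59% were above 0. In 24 h minus early it moved that median to 0.10 from −0.20.

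Of 148 results for single genes, 13 changed sign somewhere. With the intergenic covariate, late minus early was 0.034 for Arntl, 0.093 for Cd3d, 0.25 for Dbp, 0.021 for Tcf7 and 0.31 for Tsc22d3. Leaving out serum 24 h replicate 1 and serum 1.5 h replicate 3 together (chosen after seeing the data) gave −0.34 for 4930558C23Rik, 0.0028 for Arntl, 0.054 for Cd3d, 0.18 for Cxcr4, 0.29 for Dbp, 0.0089 for H2-Eb1, 0.032 for H2-Oa, 0.084 for Tcf7 and 0.48 for Tsc22d3. Dbp was 0.031 with median scaling and 0.00049 with normexp, and Tsc22d3 was 0.081 with median scaling, 0.093 with quantile normalization and 0.068 in the authors' table. Leaving out 1 array, ranges were −0.027 to 0.65 for Actn1, −0.58 to 0.11 for Arntl, −0.62 to 0.22 for Cd3d, −0.64 to 0.16 for Cxcr4, −0.53 to 0.41 for Dbp, −0.94 to 0.093 for H2-DMa, −0.86 to 0.034 for H2-Eb1, −0.78 to 0.092 for H2-Oa, −0.70 to 0.12 for Lef1, −0.65 to 0.059 for Satb1, −0.55 to 0.18 for Tcf7 and −0.59 to 0.57 for Tsc22d3. Sftpc and Scgb1a1 both lost their calls in 24 h minus early with median scaling (adjusted p = 0.0624), array weights (0.279) and the intergenic covariate (0.0957), and Scgb1a1 also with the slide block (0.127) and without the 2 arrays named above (0.265), where Sftpc had 0.0303. With normexp, 63 of 136 late minus early differences of single genes were smaller in size by more than 1.5 times and 0 larger, and the authors' table gave 37 smaller and 1 larger.

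Dim probes, near background on most arrays, limit what can be said of Sftpc, Irx2, Krt28 and Lrrc26 outside 24 h.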
